A study of Mus musculus with 6 samples.

Results

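Cluster 6 of the single-cell map of spinal cord leukocytes held 701 of 38057 CD45+ cells, and its members were taken by the cluster number that was deposited for each cell. The study asked how recipient age shapes experimental autoimmune encephalomyelitis, a mouse model of multiple sclerosis, by giving naive C57BL/6 recipients CD4+ T cells that react to MOG and had been polarized with IL-23, taken from donors congenic for CD45.1. Recipients of both ages received the same kind of T cells, and no untreated library was analysed here. Young adult recipients were 8 to 12 weeks old and middle-aged recipients were 40 to 44 weeks old, and mice of both sexes were used. Spinal cords were taken on day 6 or day 10 posttransfer, mononuclear cells were collected by a Percoll gradient and sorted for CD45, and 4 spinal cords were pooled for each library. There was 1 library for each age and day, so no comparison had a replicate of its own. In all that follows, 4 values in a row are those of young day 6, middle-aged day 6, young day 10 and middle-aged day 10.

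Neutrophils mature in the bone marrow through stages that differ in the granule proteins they make. Primary granule proteins such as myeloperoxidase and elastase are made by the dividing precursors, secondary (specific) granule proteins such as lactoferrin and cathelicidin by myelocytes and metamyelocytes that leave the cell cycle, and gelatinase granule proteins and the receptors of the circulating cell last. The transcription factor C/EBP epsilon is needed for the secondary granule stage, and granule transcripts are silenced in mature neutrophils, which in inflamed tissue switch on chemokine, cytokine and interferon-stimulated genes. Cluster 6 was therefore described by granule stage, by maturity receptors and by activation genes, against the neutrophil clusters 0 and 3 and the granulocyte precursor cluster 12.

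The young day 10 library stood apart from the other 3 before any gene was considered. The numbers of cluster 6 cells were 60, 43, 515 and 83, and those of cluster 12 were 6, 4, 131 and 19. Its cluster 3 also held more Ngp and Camp RNA than cluster 3 of the other libraries. Some results, among them the secondary granule medians and the counts of genes called, are therefore also given without it. Of the cell barcodes, 154 occurred in more than 1 library, and 5 of these belonged to a cluster 6 cell. No doublet caller was run, and the study removed cells above 25000 reads. Cluster 6 cells held up to 25717 UMIs, above that number. Cells with 2 or more UMIs of marker genes of another lineage numbered 19, 9, 233 and 57 in cluster 6 and were left out in an alternative analysis. In B cell-like cluster 4, which should lack Camp, the share of cells with a Camp UMI after thinning to 1000 UMIs per cell was 0.340%, 0%, 5.56% and 1.18%, highest in the young day 10 library.

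The promoters of 3 secondary granule genes and 3 interferon-stimulated genes are shown because these gene groups carry the main differences described for cluster 6. They are from RefSeq on GRCm38.p6, cover up to 160 bases before the start and stop before the first base that GENCODE vM21 places in the gene. Capitals mark the motif searched, on either strand. These are TTGCNNAA (TTNNGCAA on the other strand), a C/EBP-type motif, in the granule genes and GAAANNGAA (TTCNNTTTC on the other strand), an interferon-type motif, in the others.
Ltf, chr9:111019132-111019270, plus strand: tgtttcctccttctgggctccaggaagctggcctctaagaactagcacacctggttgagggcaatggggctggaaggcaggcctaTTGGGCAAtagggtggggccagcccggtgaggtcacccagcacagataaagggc
Ngp, chr9:110419648-110419746, plus strand: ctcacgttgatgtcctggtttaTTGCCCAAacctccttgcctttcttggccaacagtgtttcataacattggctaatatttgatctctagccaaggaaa
Mmp8, chr9:7558269-7558428, plus strand: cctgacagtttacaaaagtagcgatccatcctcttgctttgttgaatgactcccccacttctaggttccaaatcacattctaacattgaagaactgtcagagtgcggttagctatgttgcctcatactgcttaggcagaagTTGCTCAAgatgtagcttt
Ifit1, chr19:34640729-34640870, plus strand: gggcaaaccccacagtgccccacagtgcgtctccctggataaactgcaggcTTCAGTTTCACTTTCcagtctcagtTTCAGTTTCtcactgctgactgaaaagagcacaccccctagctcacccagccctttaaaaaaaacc
Isg15, chr4:156200819-156200978, minus strand: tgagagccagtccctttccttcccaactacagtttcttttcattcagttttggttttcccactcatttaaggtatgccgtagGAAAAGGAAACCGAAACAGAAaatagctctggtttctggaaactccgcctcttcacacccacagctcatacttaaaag
Rsad2, chr12:26456453-26456612, minus strand: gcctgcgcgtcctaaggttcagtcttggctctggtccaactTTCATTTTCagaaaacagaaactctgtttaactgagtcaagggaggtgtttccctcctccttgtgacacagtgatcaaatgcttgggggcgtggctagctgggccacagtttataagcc

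Within 250 bases before the start, the C/EBP-type letters occurred in 9.56% of 32851 promoters and in 4 of the 9 secondary granule genes with a promoter in the table (Ltf, Ngp, Lcn2 and Mmp8). None of the 13 interferon-stimulated genes with a promoter held them. The interferon-type letters occurred in 7.13% of all promoters, in 7 of these 13 genes (Ifit1, Ifit3, Isg15, Rsad2, Oas3, Gbp2 and Cxcl10) and in 1 granule gene (Chil3). Neighbouring interferon-type matches overlapped in Ifit1 and Isg15. A match is a description of the letters and not a binding site.

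Cluster 6 made up a small share of the neutrophils in 3 libraries and a larger one in the young day 10 library. Of the cells in clusters 0, 3 and 6, it held 3.36% (95% exact binomial interval, 2.58% to 4.31%) in young mice on day 6 and 1.03% (0.745% to 1.38%) in middle-aged mice on day 6. On day 10 it held 18.7% (17.2% to 20.2%) in young and 3.44% (2.75% to 4.24%) in middle-aged mice. These intervals, like the others below, cover counting error only and not the spread between mice. The middle-aged value was the lower one on both days, but young minus middle-aged was 8.78 percentage points with an exact permutation p of 0.667 (two-sided, 2 libraries per age). Day 10 minus day 6 was 8.86 points with an exact permutation p of 0.333, the smallest that 2 libraries against 2 can give. Both differences include the young day 10 library, at 18.7% where the other libraries ran from 1.03% to 3.44%. They are not given without it. Among all CD45+ cells the shares were 0.722%, 0.429%, 5.23% and 0.841%. Without cells that carried markers of another lineage, the shares of neutrophils were 2.80%, 0.917%, 16.8% and 1.95%.

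**Figure D1:**
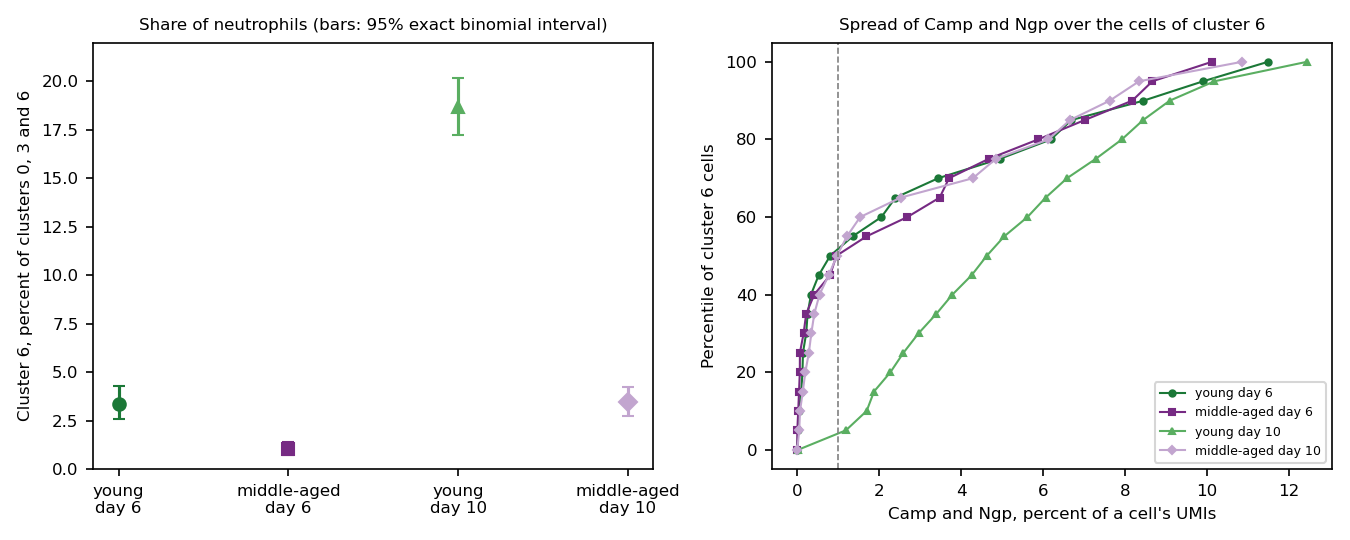
Left, cluster 6 as a percentage of the cells in clusters 0, 3 and 6 in each of the 4 libraries, with 95% exact binomial intervals for counting error. Right, for each library, the percentage of a cluster 6 cell's UMIs that came from Camp and Ngp (horizontal axis) against the percentile of cells (vertical axis), with a dashed line at 1%. The young day 10 library has the highest share (18.7%) and its curve lies to the right of the other 3, where 51.7% to 53.5% of the cells lie under 1%.

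Cluster 6 goes by the name of immature, granule-rich neutrophils, and its 5 given markers were all above their levels in cluster 0. The cells were clustered on these transcripts, so this is no independent check of the name. Levels are counts per 1000000 of the summed UMIs of a cluster in a library (CPM), and ratios between clusters are log2 ratios of CPM within each library, given as mean ± SD over the 4 libraries. They are a description and were not tested, since the clusters were made from these genes. Ltf, which encodes the iron-binding protein lactoferrin, was at 5219.5, 5565, 7722 and 4998 CPM in cluster 6 and at 45.6, 61.7, 102 and 58.2 CPM in cluster 0, a log2 ratio of 6.50 ± 0.25. Camp, the cathelicidin antimicrobial peptide gene, was at 18570.3, 18146, 25867 and 16046 CPM, and Ngp, neutrophilic granule protein, at 17412, 19100.1, 28151 and 17979 CPM. Their log2 ratios to cluster 0 were 10.77 ± 1.83 and 10.65 ± 2.26, and these ratios spread widely, where cluster 0 itself held 7.45, 4.08, 177 and 4.70 CPM of Ngp. Cluster 3 held 43.5, 15.8, 2708 and 81.1 CPM of Ngp and 7.25, 4.75, 655 and 3.6 CPM of Camp, again with the young day 10 library far above the others. Lcn2, the siderophore-binding lipocalin, was at 11896, 15920.5, 16542 and 12336 CPM, 3.32 ± 0.36 above cluster 0 and 1.92 ± 0.70 above cluster 3. Ly6g, the surface antigen used to recognise mouse neutrophils, was at 721, 610.0, 828 and 668 CPM, 4.87 ± 0.59 above cluster 0 and 1.66 ± 0.95 above cluster 12. On GRCm38 (GENCODE vM21), Ltf lies at chr9:111019271-111042767, Ngp at chr9:110419747-110423012, Camp at chr9:109847379-109849617, Lcn2 at chr2:32384633-32388252 and Ly6g at chr15:75155240-75159126. Reads of Ly6 family genes may be split uncertainly between them. The levels of the 4 cluster 6 libraries lay within a factor of 2 for each of the 5 genes, while those of Ngp and Camp in clusters 0 and 3 spread far more widely.

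**Figure D2:**
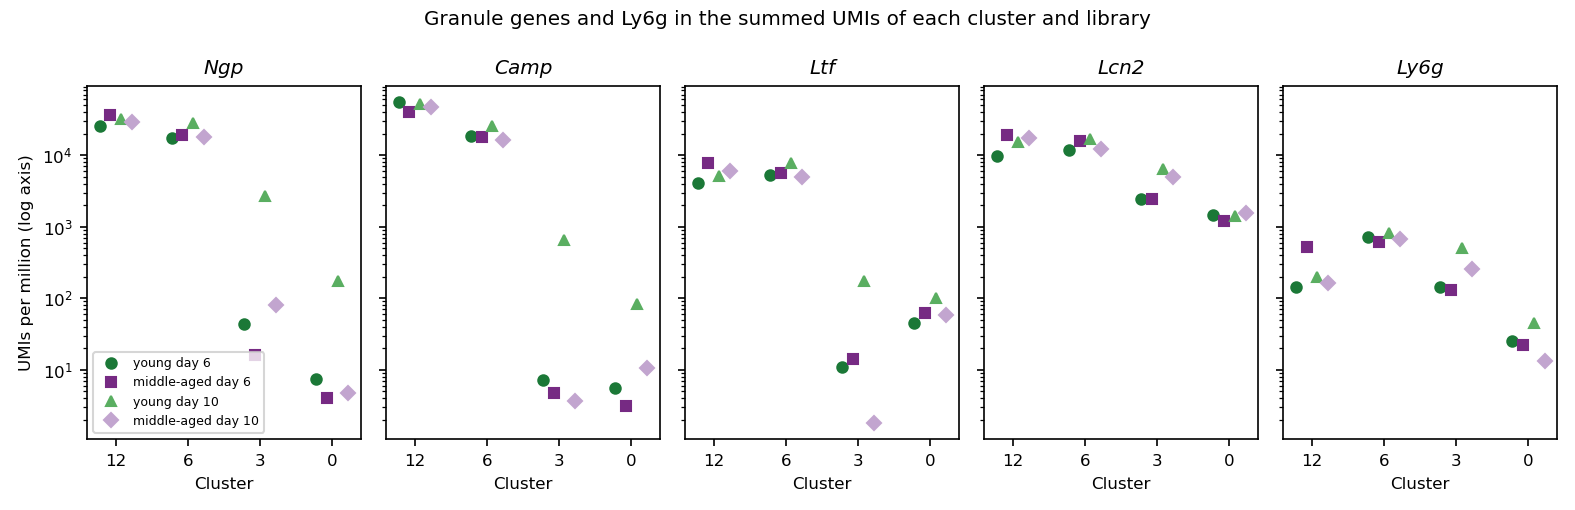
CPM (log axis) of the 5 marker genes in the summed UMIs of clusters 12, 6, 3 and 0, a point per library. Clusters 12 and 6 lie close together for the granule genes Ltf and Lcn2. Ngp and Camp are lower in cluster 6 than in cluster 12 in every library, Camp by at least 2-fold. Ly6g is highest in cluster 6 in every library, and the young day 10 points stand above the others in clusters 3 and 0 for Ngp and Camp.

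A large part of the marker RNA in the spinal cord libraries sat in this small cluster. Cluster 6, with 701 cells, held 63.0% of all Ltf UMIs of the 4 libraries, 56.5% of those of Ngp, 46.4% of those of Camp, 55.9% of those of Ly6g and 41.8% of those of Lcn2. Cluster 12, with 160 cells, held a further 19.0% of Ltf and 41.8% of Camp UMIs. For Lcn2 the share in cluster 6 was 27.9%, 21.9%, 50.8% and 27.5%, and that in cluster 0 was 32.9%, 42.8%, 4.43% and 27.9%.

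By their median ratio, the secondary granule genes separated cluster 6 from clusters 0 and 3 but not from cluster 12. Their summed level was lower than in cluster 12 in every library. It was 65375, 71503, 97103 and 67360 CPM in cluster 6 and 111421, 119832, 129416 and 121398 CPM in cluster 12. Of the 11 genes, 9 were at least 2-fold higher than in cluster 0 in all 4 libraries and none was lower, with a median log2 ratio of 3.38, where 7.83% of the 2706 genes compared were higher and 19.5% lower by this rule and the median of all genes was -0.57. Against cluster 3, 8 of 11 were higher in all 4 libraries (3.06% of all genes) with a median of 2.83, and none was lower (4.37%). Against cluster 12, the median was -0.07, with Mmp8 higher (7.35% of all genes) and 3 genes, Camp, Chil3 and Orm1, lower in all 4 libraries (9.55%). Mmp8, the neutrophil collagenase, was at 2802, 2418, 2862 and 2646 CPM in cluster 6 and at 26.7, 15, 172 and 162 CPM in cluster 12, a log2 ratio of 5.53 ± 1.74. Orm1, the acute-phase protein orosomucoid, was at 109, 69.7, 190.0 and 108 CPM against 383, 256, 444 and 404 CPM in cluster 12 and 0.851, 0.972, 1.96 and 0.522 CPM in cluster 0. Chil3, a secreted chitinase-like protein, was at 4132, 3887, 8945 and 7158 CPM, 1.55 ± 0.66 above cluster 0 and -1.28 ± 0.24 against cluster 12, where the minus sign means lower in cluster 6. Hp, which encodes haptoglobin, was nearest to an even level, with log2 ratios of 0.95 ± 0.43, -0.11 ± 0.32 and 0.15 ± 0.11 to clusters 0, 3 and 12. Without the young day 10 library the list medians were 3.51, 3.43 and -0.16 against clusters 0, 3 and 12. The 6 and 4 cells of cluster 12 on day 6 limit every ratio to that cluster.

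Primary granule genes, made earlier in development, were nearly absent. All 6 were below 50 CPM in every library in cluster 6. Elane, neutrophil elastase, was at 0, 0, 0.221 and 2.82 CPM in cluster 6 against 1789, 0, 728 and 537 CPM in cluster 12, and Mpo, myeloperoxidase, at 0, 0, 0.886 and 1.41 CPM against 917, 0, 106 and 73.5 CPM. The summed UMIs of the 6 genes in cluster 6 were 7, 17, 108 and 45. In cluster 12 they were 689, 6, 3643 and 399, where middle-aged day 6 had only 4 cells.

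Gelatinase granule and secretory vesicle genes, which come after the secondary granules, were higher in cluster 6 than in cluster 12. Of 7 genes, 5 were at least 2-fold higher than in cluster 12 in all 4 libraries (7.35% of all genes), with a median log2 ratio of 1.5 (0.06 over all genes). Mmp9, gelatinase B, was at 1640.2, 1788, 1775 and 1614 CPM against 71.2, 226, 165 and 169 CPM in cluster 12, and Mmp25, a membrane-bound metalloproteinase, was 1.5 ± 0.28 above cluster 12 and 1.91 ± 0.39 above cluster 0. Adam8, a surface protease, was 2.50 ± 0.66 above cluster 12 and -0.29 ± 0.22 against cluster 3. The median of the list was 1.09 against cluster 0 and 0.34 against cluster 3, where the medians of all genes were -0.57 and -0.16.

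Receptors of the circulating neutrophil placed cluster 6 between the precursors and the other neutrophils. Of 11 genes, 7 were at least 2-fold higher than in cluster 12 in all 4 libraries (7.35% of all genes, median log2 ratio 1.85) and 5 were at least 2-fold lower than in cluster 0 (19.5% of all genes, median -1.14). Csf3r, the receptor of granulocyte colony-stimulating factor, was at 513, 331, 201 and 328 CPM in cluster 6, 1087, 980.0, 827 and 883 CPM in cluster 0 and 223, 90.3, 74.7 and 114 CPM in cluster 12. Cxcr2, the receptor that draws neutrophils to CXC chemokines, was at 958, 742, 282 and 539.6 CPM, 2.83 ± 0.41 above cluster 12 but -1.46 ± 0.24 against cluster 3. Every library kept this order for Csf3r, with cluster 12 lowest. Ptafr, the platelet-activating factor receptor, was -2.18 ± 0.37 and Fcgr4, an activating Fc receptor, -1.82 ± 0.46 against cluster 0. Ltb4r1, the leukotriene B4 receptor, went the other way and was 0.88 ± 0.32 against cluster 0. Cxcr4, which retains neutrophils in the marrow, was lower than in cluster 0 (-1.89 ± 0.39).

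Cebpe, which encodes C/EBP epsilon, followed the granule genes. It was at 194, 115, 322 and 214 CPM in cluster 6, 11.5, 11, 40.3 and 31.9 CPM in cluster 0 and 623, 361, 777 and 603 CPM in cluster 12, which gives log2 ratios of 3.30 ± 0.58 to cluster 0 and -1.53 ± 0.19 to cluster 12. Cebpb, a C/EBP factor of emergency granulopoiesis and activation, had the reverse order, at 2409, 2121, 1434 and 2113 CPM with log2 ratios of -1.24 ± 0.33 to cluster 0 and 1.82 ± 0.47 to cluster 12. Spi1, which encodes the myeloid factor PU.1, differed less, by -0.29 ± 0.22 from cluster 0. Gfi1, a repressor of the granulocyte lineage, was at 6, 0, 18 and 1 UMIs and allowed no comparison.

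Transcripts of dividing cells were far lower in cluster 6 than in cluster 12. Of 17 cell cycle genes at 50 CPM or more in either cluster, 9 were at least 2-fold lower than in cluster 12 in all 4 libraries (9.55% of all genes) and none was higher, with a median log2 ratio of -5.73. Mki67, a marker of cycling cells, was at 2.06, 4.98, 7.53 and 9.86 CPM against 614, 196, 510.3 and 757 CPM in cluster 12, and Top2a, topoisomerase II alpha, at 4.12, 4.98, 1.77 and 5.64 CPM against 481, 241, 566 and 772 CPM. After thinning to 1000 UMIs, an Mki67 UMI was found in 0 of 60, 0 of 43, 4 of 515 and 1 of 83 cluster 6 cells, against 2 of 6, 0 of 4, 41 of 131 and 10 of 19 cells of cluster 12. In B cell-like cluster 4 it was found in 0.340%, 0%, 0% and 0.296% of cells, close to the cluster 6 shares of 0%, 0%, 0.777% and 1.20%. H2afz, a histone variant that stays after division stops, was intermediate, at 529.6, 436, 884 and 662 CPM with log2 ratios of 1.01 ± 0.36 to cluster 0 and -2.36 ± 0.30 to cluster 12.

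The oxidase and the enzyme of chromatin release were expressed above the level of cluster 0. Cybb, the catalytic subunit of the phagocyte NADPH oxidase, was at 1257, 864, 1359 and 981 CPM, with log2 ratios of 2.46 ± 0.72 to cluster 0, 3.76 ± 1.13 to cluster 3 and -0.10 ± 0.26 to cluster 12. Padi4, which citrullinates histones in neutrophil extracellular traps, was at 204, 112, 158 and 173 CPM against 13.6, 6.51, 23.3 and 11.8 CPM in cluster 0. Ncf1, a cytosolic oxidase subunit, hardly differed from cluster 0 (0.07 ± 0.25). Of 7 genes of this group that reached 50 CPM, 3 were at least 2-fold higher than in cluster 0 in all 4 libraries (7.83% of all genes) and none was lower. S100a8 and S100a9, the 2 calprotectin subunits, together made up 27.0%, 32.5%, 31.3% and 29.6% of all UMIs of cluster 6, against 3.50% to 4.54% in cluster 0.

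Chemokine, cytokine and interferon-stimulated transcripts were lower in cluster 6 than in cluster 0. Of 18 inflammatory activation genes, 16 were at least 2-fold lower in all 4 libraries (19.5% of all genes) and none was higher, with a median log2 ratio of -2.10 (-0.57 over all genes). Of 16 interferon-stimulated genes, 12 were lower, with a median of -2.55. Il1b, interleukin-1 beta, was at 4873, 4011, 1602 and 3391 CPM in cluster 6 and 14322, 11958, 11374 and 11355 CPM in cluster 0, and Cxcl2, a neutrophil-attracting chemokine, at 6963, 7076, 1968 and 3969 CPM and 22925, 26994, 13028 and 14252 CPM. Rsad2, the antiviral enzyme viperin, was at 919, 804, 43.4 and 62.0 CPM and 3226, 4663, 630.4 and 524 CPM. Cluster 6 was below cluster 0 in every library for these 3 genes. The difference from cluster 3 was smaller, with medians of -0.82 and -0.32 and with 5 of 17 and 1 of 14 genes lower in all 4 libraries (4.37% of all genes). Against cluster 12 the medians were 2.01 and 1.34, with 10 of 17 inflammatory and 0 of 11 interferon-stimulated genes at least 2-fold higher in all 4 libraries (7.35% of all genes). With the secondary granule genes, S100a8 and S100a9 out of the totals the granule median against cluster 0 was 4.00. The inflammatory and interferon-stimulated medians are given with these genes in the totals. Leaving them out would raise other levels more in cluster 6 than in cluster 0, and so bring those medians against cluster 0 nearer to even.

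**Figure D3:**
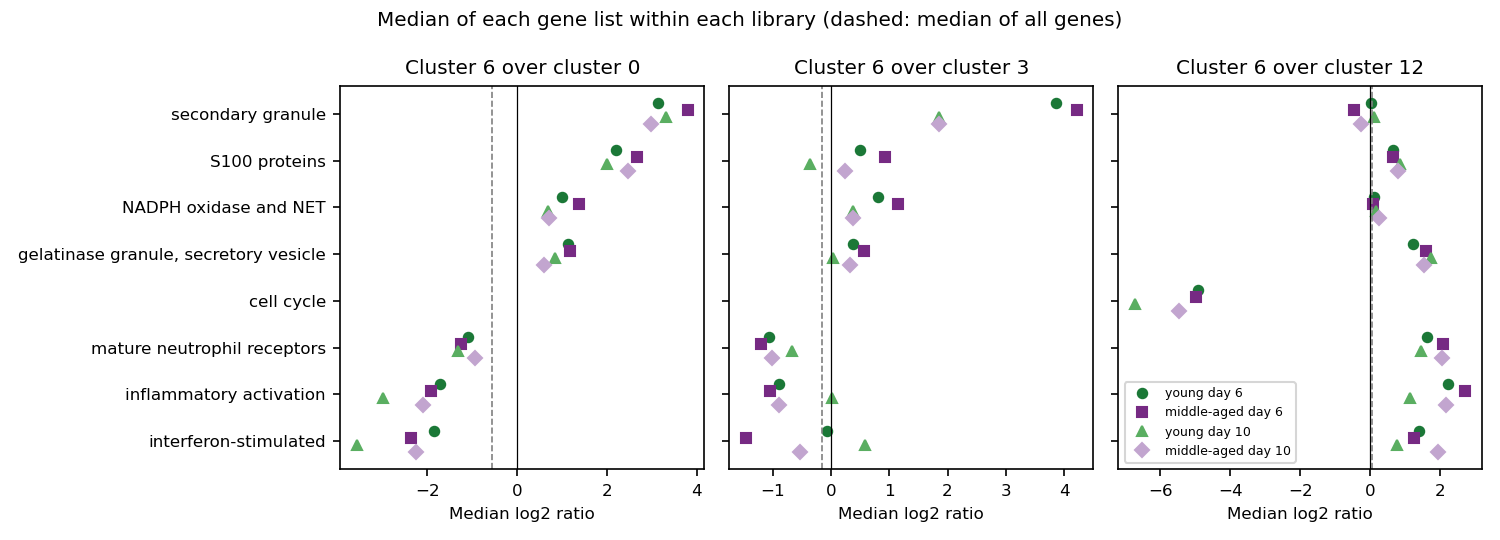
Median log2 ratio of cluster 6 to clusters 0, 3 and 12 for 8 gene lists, a point per library and a dashed line at the median of all genes. Secondary granule genes lie right of 0 against clusters 0 and 3 and near 0 against cluster 12, and cell cycle genes (shown where at least 3 reached 50 CPM) lie far left of 0 against cluster 12.

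By size of the ratio to clusters 0 and 3 together, the 10 highest genes, after Camp, Ngp and Ltf, were Serpinb1a, Itgb2l, Adpgk, Lta4h, Aldh2, Ifitm6 and Ly6g. Serpinb1a, an inhibitor of neutrophil serine proteases, was at 455, 520.4, 819 and 461 CPM in cluster 6 and at 5.14, 2.02, 47.6 and 4.60 CPM in clusters 0 and 3, a log2 ratio of 6.31 ± 1.62. Lta4h, leukotriene A4 hydrolase, was at 136, 139, 228 and 170.5 CPM with a log2 ratio of 4.33 ± 0.79. The 10 highest ratios ran from 3.76 (Ly6g) to 10.35 (Camp), with 5.07% of 2661 genes at least 2-fold higher in all 4 libraries. The 10 lowest were E230032D23Rik, Tmem140, Gadd45b, Socs1, Rsad2, Gbp3, Ly6i, Ly6a, Ccl3 and Clec4n, from -2.87 to -2.57, with 17.9% of genes at least 2-fold lower. Socs1, a suppressor of cytokine signalling, was at 204, 174, 32.1 and 26.8 CPM against 863, 726, 247 and 302 CPM in clusters 0 and 3. Against cluster 12 the highest were Mmp8, Retnlg, Cstdc4, Asprv1 and Dhrs9, and the lowest were Hist1h1b, Top2a, Pclaf, Mki67 and Birc5, all 5 of them genes of dividing cells.

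The summed values hid a wide spread among the cells. As a percentage of a cell's UMIs, the 11 secondary granule genes had a median of 3.49%, 4.15%, 8.66% and 3.21% in cluster 6, with the 10th percentile at 1.13%, 1.72%, 4.24% and 1.54% and the 90th at 12.4%, 13.4%, 14.9% and 12.8%. In cluster 12 the medians ran from 11.5% to 13.8% and in cluster 0 from 0.169% to 0.599%. Camp and Ngp together made up under 1% of the UMIs in 31 of 60 cells (51.7%, interval 38.4% to 64.8%) in young day 6 and in 23 of 43 (53.5%, 37.7% to 68.8%) in middle-aged day 6. On day 10 the numbers were 17 of 515 (3.30%, 1.93% to 5.23%) in young and 43 of 83 (51.8%, 40.6% to 62.9%) in middle-aged mice. So 3 libraries had about equal numbers on both sides of this line and the young day 10 library had nearly all cells above it. The line at 1% is a point on a range and not a border between types. From 0.5% to 2% lay 10, 5, 83 and 21 cells, and the line was chosen after the data were seen.

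When the cells were parted at that line, those with much Camp and Ngp had like levels of Ltf in all 4 libraries. The values on either side of the line are given as a description, since Camp and Ngp drew it. On the side of 1% or more, Ltf was at 8276, 8885, 7926 and 8124 CPM, and on the other side at 265, 195, 536 and 327 CPM. Cebpe was at 307, 173, 329 and 329 CPM against 10.8, 19.5, 56.0 and 42.2 CPM, and Chil3 at 6290.1, 5533, 9121 and 10551 CPM against 632, 1225, 2775 and 2088 CPM. Cebpe, Ltf and Chil3 thus had the same order in every library, while Mmp8 of the same granule list had the reverse one. Retnlg, a resistin-like protein of neutrophils, was at 32273, 43093, 39109 and 40585 CPM in the cells with little Camp and Ngp and at 9032, 9671, 12820.3 and 10024 CPM in the others. Mmp8 was at 3695, 3923, 4022 and 3708 CPM and 2252, 1487, 2828 and 1935 CPM, and Cxcr2 at 1313, 1088, 519.7 and 784 CPM and 739.6, 528, 276 and 376 CPM. Collagenase and chemokine receptor RNA thus made up a larger share of the UMIs of cells with little Camp and Ngp in every library. These cells held fewer UMIs, and RNA per cell was not compared. Ly6g did not follow the line, at 789.6, 532, 835 and 673 CPM in cells with 1% or more and 610.4, 736, 584 and 661 CPM in the others. Mki67 was at 0 to 11.8 CPM on both sides. Median UMIs per cell were 8885, 12164.5, 8300.5 and 10128 on the side of 1% or more and 5201, 5814, 6035 and 5946 on the other.

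**Figure D4:**
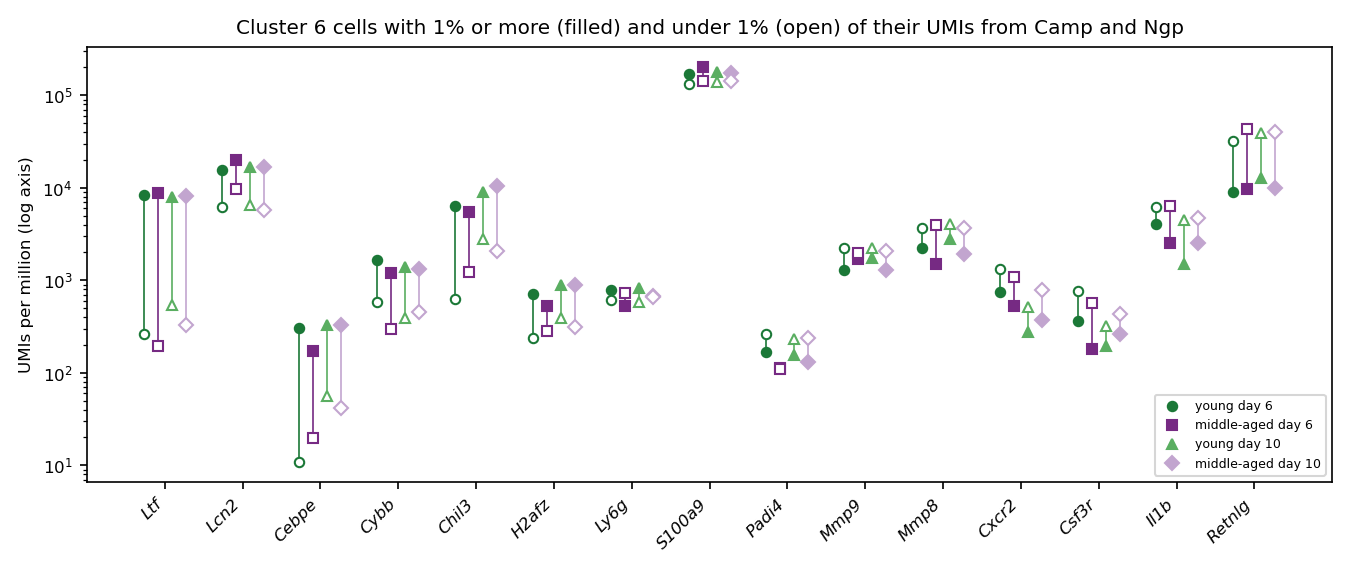
CPM (log axis) of 15 genes in cluster 6 cells with 1% or more (filled) and under 1% (open) of their UMIs from Camp and Ngp, a pair of points per library. The pairs run the same way in all 4 libraries for Ltf, Lcn2, Cebpe, Cybb and Chil3 (filled higher) and for Mmp8, Cxcr2, Csf3r, Il1b and Retnlg (open higher), and they cross for Ly6g and Padi4.

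The cells at the ends of this range (15, 10, 128 and 20 cells with most and as many with least Camp and Ngp) showed the same order. With Camp and Ngp out of the totals, the log2 ratio of the highest to the lowest cells was 3.29 ± 1.42 for Chil3, 2.63 ± 1.02 for Serpinb1a, 2.40 ± 0.64 for Cybb and 1.87 ± 0.20 for H2afz (mean ± SD, 4 libraries). It was -3.21 ± 0.51 for Retnlg, -3.73 ± 1.41 for the stefin gene Stfa2l1, -1.73 ± 0.25 for Cxcr2, -1.68 ± 0.44 for Csf3r and -2.31 ± 1.22 for Il1b. For Ly6g it was 0.20 ± 0.45, within its spread. These ratios are of shares of UMIs and not of RNA per cell. In summed UMIs, Il1b was at 698, 124, 342 and 260 in the highest cells and at 529, 544, 3018 and 576 in the lowest.

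In relation to all neutrophils, the share that differed most was that of cells rich in Camp and Ngp. Cluster 6 cells on the side of 1% or more made up 1.63% (1.09% to 2.33%), 0.478% (0.292% to 0.738%), 18.1% (16.6% to 19.5%) and 1.66% (1.19% to 2.25%) of clusters 0, 3 and 6. Those under 1% made up 1.74%, 0.550%, 0.616% and 1.78%. The young day 10 library was thus the highest of the 4 only on the first side. The same library also held 31 of 514 cells of cluster 3 and 3 of 1729 cells of cluster 0 at 1% or more, where the other libraries had none.

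The shares of cells with a UMI followed the same split. After thinning to 1000 UMIs per cell, which left out no cluster 6 cell, Ltf was found in 48.3%, 48.8%, 94.2% and 54.2% of cells (unthinned 58.3%, 60.5%, 98.6% and 66.3%). Camp was found in 65.0%, 53.5%, 97.7% and 61.4%, and Ly6g in 51.7%, 41.9%, 54.2% and 44.6%. In B cell-like cluster 4 the thinned shares for Ltf were 0%, 0%, 1.11% and 0.296%, far under those of cluster 6. The median depth was 7237, 8516, 8262 and 7748 UMIs per cell in cluster 6 and ran from 2402 to 2997 in cluster 4. Cells of cluster 6 also held more UMIs than those of cluster 0 (2193 to 2365) and fewer than those of cluster 12 (14156 to 19033.5). At 1000 UMIs the median cluster 6 cell showed 375 to 419 genes, fewer than the 467 to 559 of cluster 0.

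Markers of lymphocytes, mast cells and platelets were low in cluster 6, and the sum of the monocyte markers, mostly Ly6c2, was above that in cluster 0. No gene of basophils or mast cells had a UMI, and the 4 eosinophil, 4 NK cell and 5 dendritic cell markers lay below 50 CPM each. The 5 T cell markers summed to 14.4, 0, 26.3 and 36.6 CPM and the 5 B cell markers to 28.8, 19.9, 17.9 and 9.86 CPM. Macrophage markers were at a sum of 92.7, 57.3, 254 and 469 CPM over 6 genes. In cluster 0 the same sum was 337, 161, 576 and 742 CPM, higher in every library. The 6 monocyte markers summed to 820.1, 687, 1071 and 892 CPM in cluster 6, 439, 320.3, 288 and 246 CPM in cluster 0 and 703, 797, 970.0 and 709.7 CPM in cluster 12. Of the cluster 6 sum, Ly6c2 made up 709, 652, 1008 and 761 CPM. Only 2 monocyte markers reached 50 CPM in cluster 6 or cluster 0. In all 4 libraries 1 of them was at least 2-fold higher than in cluster 0 (log2 2.47, 7.83% of all genes). The other was at least 2-fold lower (log2 -1.71, 19.5%). The part of monocyte RNA in the results was not tested. The 5 microglia markers summed to 26.8, 14.9, 7.53 and 21.1 CPM. The 6 erythroid markers had 1 UMI in all and the 4 platelet markers 1, 0, 5 and 2 UMIs.

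With age, little passed the test in cluster 6. Summed counts were tested with edgeR's quasi-likelihood test, with age and day in the model and Benjamini-Hochberg adjustment over 4954 genes. The p-values here set the age or day difference against the departure of the 4 libraries from additivity of age and day. That leaves 1 residual degree of freedom per gene. In these and the later fits, edgeR drew each gene's variance toward a trend over all genes. The p-values therefore also rest on variance shared across genes. Since each library was 1 pool of mice, they do not measure the spread between mice. A gene was called at an adjusted p under 0.05. The summed UMIs of cluster 6 were 485292, 401621, 4516833 and 709816, so the young day 10 values were the most precise and the middle-aged day 6 values the least. A single gene was called (0.0202% of those tested), with 176 at an unadjusted p under 0.05, and DESeq2 called 0 with 35 at an unadjusted p under 0.05. Prok2, a secreted prokineticin that draws myeloid cells, was at 65.9, 199, 3.76 and 23.9 CPM, from 32, 80, 17 and 17 UMIs. It was higher in middle-aged mice on both days, with a log2 difference of 2.09 (adjusted p = 0.0244). The call was lost with another scaling (adjusted p = 0.262 with RLE size factors, from 0.000525 to 1.00 over all alternatives). With age alone in the model it was also lost with all 4 libraries (log2 2.13, adjusted p = 1.00). With a library left out, age and day together leave no residual degrees of freedom, so these fits held age alone, in which age and day are mixed. Prok2 was not called in any of the 4, and its log2 difference ran from -0.31 (without middle-aged day 6) to 4.93 (without young day 6). Within a day, with no test, the log2 ratio of middle-aged to young was 1.59 (counting interval 0.99 to 2.23) on day 6 and 2.67 (1.61 to 3.73) on day 10. Prok2 was at 129.6, 443, 8.0 and 52.7 CPM in the cells under 1% of Camp and Ngp against 26.7, 48.4, 3.64 and 4.70 CPM in the others. In the cells under 1% alone it passed the test (log2 2.05, adjusted p = 0.0015) and in the others it did not (log2 0.82). The young day 10 library held only 17 cells under 1%, so its 8.0 CPM stands for very few UMIs. The split was made after the data were seen, so this does not place the age difference in either group of cells.

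None of the gene lists held a called gene for age. The secondary granule list had a median log2 difference of -0.15 and no member called of 11, and for the 5 marker genes the differences ran from -0.31 to 0.05, against a median of 0.00 over all genes tested. For Ltf, Ngp and Lcn2 these average opposite directions. On day 6 the log2 ratios of middle-aged to young were 0.09, 0.13 and 0.42, with no test. On day 10 the middle-aged level was the lower one for each of them. Among genes not called, with 100 CPM or more in at least 1 library, that pointed the same way on each day, the largest differences were those of H2-Q7 (1.30), Hilpda (1.25), Fabp5 (1.18) and Mpeg1 (1.17) on the side of middle-aged mice. On the side of young mice they were Stfa2 (-1.87), Zmpste24 (-1.40), Stfa1 (-1.37), 1700047M11Rik (-1.09) and Cited2 (-1.05). Their adjusted p-values ran from 0.150 (Stfa2) to 0.544 (1700047M11Rik).

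From day 6 to day 10, transcripts of inflammation and interferon response fell in cluster 6 and those of ribosomal proteins rose. The same fit called 386 of 4954 genes, 81 higher on day 10 (1.64%) and 305 lower (6.16%). Here and below, list members counted as falling or rising are those called lower or higher. In fits that left out 1 library and, for want of residual degrees of freedom, also the age term, 47 were called without young day 10, 57 without young day 6, 103 without middle-aged day 6 and 565 without middle-aged day 10. With all 4 libraries and no age term it was 406. The counts per list without 1 library are from the same fits with day alone. Of the 16 interferon-stimulated genes 15 were called lower, with a median log2 difference of -2.50, where the median of all genes was 0.05. The 16 differences ran from -4.46 to -0.63. Ifit1, an interferon-induced RNA-binding protein, was at 466, 481, 19.0 and 28.2 CPM and fell by 4.46 on the log2 scale (adjusted p = 2.04e-09). Isg15, a ubiquitin-like modifier, was at 1160.1, 884, 106 and 70.4 CPM and fell by 3.63 (adjusted p = 2.53e-08), and Rsad2 fell by 4.17 (adjusted p = 3.42e-09). Both day 10 libraries lay below both day 6 libraries for these 3 genes. Leaving out 1 library at a time, 9 genes of the list fell without young day 10, 10 without young day 6, 10 without middle-aged day 6 and 16 without middle-aged day 10, and DESeq2 called 14. The 10 largest falls of all genes were those of Cxcl3, Ifit3b, Ifit1, Ifit3, Ifi209, Rsad2, Oasl1, Ifi211, Ifit2 and Schip1, from -6.05 to -3.79. Reads of near-identical Ifit genes may be split uncertainly between them.

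Inflammatory activation genes fell as well, with 13 of 18 called lower, a median of -1.42 and differences from -6.05 to -0.10. Cxcl3, a neutrophil-attracting chemokine, was at 404, 578, 7.31 and 5.64 CPM and fell by 6.05 (adjusted p = 2.28e-10), the largest of all named changes. Il1rn, the interleukin-1 receptor antagonist, was at 797, 829, 99.6 and 192 CPM and fell by 2.67 (adjusted p = 7.96e-07), and Cd274, which encodes PD-L1, was at 548, 481, 57.6 and 127 CPM and fell by 2.71 (adjusted p = 1.24e-06). Tnf, another cytokine, did not pass the test (log2 -0.10, adjusted p = 0.908) and was at 202, 214, 199 and 216 CPM. Without single libraries, 4 (without young day 10 or without middle-aged day 6), 5 (without young day 6) and 14 (without middle-aged day 10) genes of the list fell. Of the 11 mature receptors 5 were called lower, among them Cxcr2 (-1.22, adjusted p = 0.00768) and Ptafr (-1.63, adjusted p = 0.000387). The 11 differences ran from -1.63 to -0.08. No receptor was called without young day 6, without middle-aged day 6 or without young day 10, and 8 were without middle-aged day 10. None was called in the cells with 1% or more of Camp and Ngp, and the share of cells under 1% itself differed between the libraries, as given above. In these cells with 1% or more 7 interferon-stimulated and 5 inflammatory genes were called lower, beside 24 of all 3729 genes tested. In the cells under 1% it was 14 and 9, beside 151 of 2224, so the 2 fits differed in calls over all genes too.

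**Figure D5:**
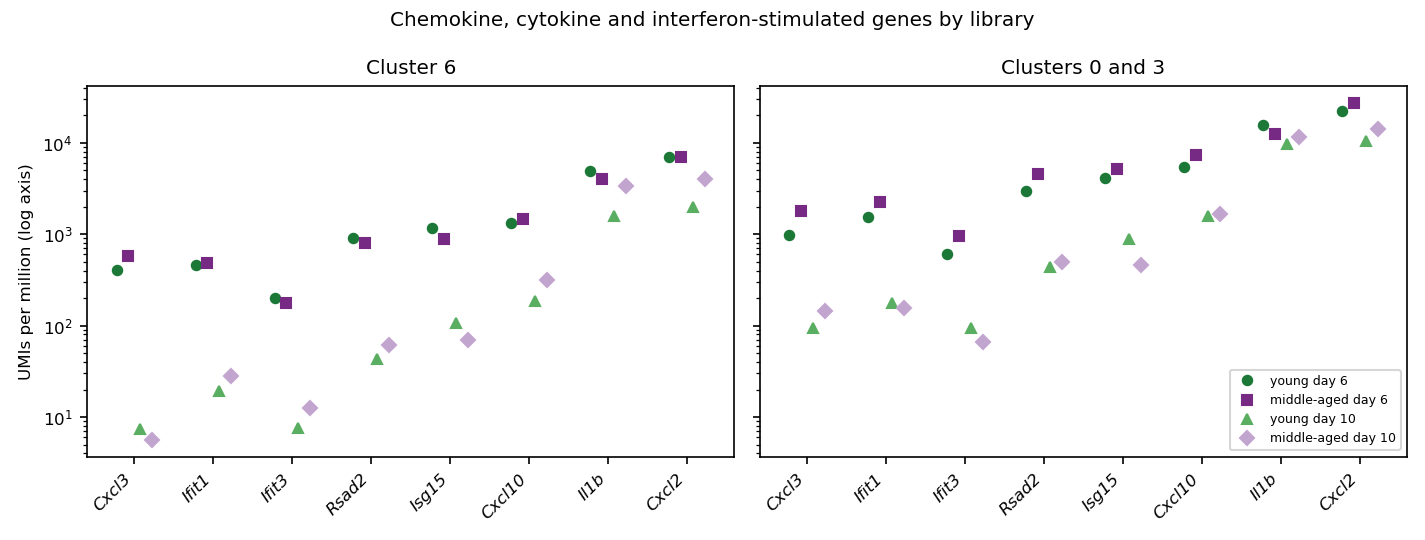
CPM (log axis) of 8 chemokine, cytokine and interferon-stimulated genes in cluster 6 (left) and in clusters 0 and 3 together (right), a point per library. In cluster 6 both day 10 points lie below both day 6 points for each gene, and for all 8 genes cluster 6 lies below clusters 0 and 3 in every library.

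The other neutrophils showed the same direction. The summed level of the 16 interferon-stimulated genes was 10122, 10069, 1843 and 3043 CPM in cluster 6, 32786, 38785, 12670.0 and 11068 CPM in cluster 0 and 3739, 6379, 1099 and 1151 CPM in cluster 12. In a fit of cluster 6 beside clusters 0 and 3, with a term for each library, the day difference itself differed between them for 259 of 9918 genes, 169 higher (1.7%) and 90 lower (0.907%) in cluster 6. Of the interferon-stimulated genes 2 of 16 were among these, Cmpk2 higher (log2 1.21, adjusted p = 0.0221) and Ifitm1 lower (-0.88, adjusted p = 0.0307), and the median was -0.17. Cxcl3 fell further in cluster 6 than in clusters 0 and 3, by 2.02 (adjusted p = 5.12e-06). Without scaling factors, 442 genes were called, 15 higher and 427 lower, so the direction of this count depended on the scaling. Without a cluster by age term, as in each fit without a library, it was 262 with all libraries, 40 without young day 10, 41 without middle-aged day 6, 150 without middle-aged day 10 and 389 without young day 6.

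Among the genes that rose on day 10 were stefins, ribosomal proteins and macrophage genes. Stfa2, a cysteine protease inhibitor, was at 12.4, 0, 244 and 78.9 CPM, from 6, 0, 1104 and 56 UMIs, with a fitted log2 difference of 4.70 (adjusted p = 4.00e-07) that depends on the prior count. In cluster 3 it was higher in every library, at 52.6, 64.9, 1087 and 723 CPM. Of 4 stefin genes measured 3 rose, and none was called without young day 6, without middle-aged day 6 or without young day 10. Reads of these near-identical genes may be split uncertainly between them. Ribosomal protein genes made up 2.32%, 1.96%, 3.95% and 4.00% of UMIs in cluster 6 and 2.60%, 2.20%, 6.60% and 6.55% in cluster 0. The 77 tested had differences from 0.13 to 1.92 with a median of 0.93, and 43 of them were called higher. Their count was 0 without young day 6, 3 without middle-aged day 6, 6 without young day 10 and 61 without middle-aged day 10. C1qa, a complement component of macrophages, was at 8.24, 4.98, 31.9 and 66.2 CPM and rose by 2.63 (adjusted p = 0.00239), one of 4 of 5 macrophage markers that were called higher. The part of macrophage RNA in the other day differences was not tested. The 10 largest rises were those of Stfa2, Krt81, Ces2g, C1qa, Cstdc5, C1qc, Lsm3, Fam76b, C1qb and Apoe, from 4.70 to 2.09. Krt81, a hair keratin, was at 4.12, 0, 27.0 and 32.4 CPM (2, 0, 122 and 23 UMIs), and was at 1 UMI in clusters 0 and 3 of all libraries together.

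Few secondary granule genes passed the test for day in cluster 6. Of 11 genes only Olfm4, an olfactomedin found in part of the neutrophils, was called and fell by 1.45 (adjusted p = 0.0163), from 348, 528, 250.2 and 104 CPM. The 5 marker genes had fitted log2 differences from -0.05 to 0.20, which for 4 of them average opposite directions. In young mice Ltf, Ngp, Camp and Lcn2 were higher on day 10 by 0.57, 0.69, 0.48 and 0.48 on the log2 scale, and in middle-aged mice the ratios were -0.15, -0.09, -0.18 and -0.37. Chil3 was higher on day 10 in both, by 1.11 and 0.88. These ratios of 2 libraries have no test. In the young day 10 library Camp was at 25867 CPM against 16046 to 18570 CPM in the other 3, and on the side of 1% or more at 26578 against 26352 to 29452 CPM.

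The difference between ages was compared with that in clusters 0 and 3. In the fit with a term for each library, 59 of 9918 genes were called, 57 with a higher middle-aged over young difference in cluster 6 (0.575%) and 2 with a lower one (0.0202%). The 2 largest were Ngp (log2 3.77, adjusted p = 5.97e-33) and Camp (2.67, adjusted p = 4.35e-15). Cells were assigned to these clusters by such transcripts, so for Ngp and Camp the test is no independent evidence of an age difference. In clusters 0 and 3 Ngp was at 11.2, 4.76, 986 and 11.4 CPM and Camp at 5.71, 3.21, 265 and 10.0 CPM, and in cluster 6 the 4 libraries lay within a factor of 2. Of these levels, the one far from the rest was that of clusters 0 and 3 in the young day 10 library. Of the secondary granule list 4 of 11 were called, Ngp, Camp, Mmp8 and Pglyrp1, all higher. With the cluster by day term out, as in each fit without a library, 11 genes were called from all 4 libraries and 1 without the young day 10 library. Without middle-aged day 6 it was 2, without young day 6 it was 6 and without middle-aged day 10 it was 31. Against cluster 0 alone 4 genes were called, all higher. Against cluster 3 alone 78 were called, 14 higher and 64 lower, so the direction of the count turned with the cluster compared. DESeq2 called 3, all higher.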

How the data were processed

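CD45+ spinal cord cells were profiled by droplet single-cell RNA-seq in 4 libraries, 1 for each recipient age and day. The authors aligned and counted reads with Cell Ranger 3.1.0, filtered cells by genes, reads, mitochondrial and ribosomal content, integrated the libraries and clustered them with Seurat 4.0.4. They deposited raw UMI counts per gene and cell with each cell's library and cluster, and the counts are not normalized. Here the counts were summed per cluster and library. Levels are UMIs per 1000000, and clusters were compared by log2 ratios within libraries among genes with 50 CPM or more in either cluster, without a test (floor 3 counts for a 0).

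Age (adjusted for day) and day (adjusted for age) were tested on the cluster 6 sums with edgeR 4.0.16 (quasi-likelihood, TMM, R 4.3.3) for genes with 10 or more UMIs in at least 2 libraries. The differences of age and day effects between cluster 6 and clusters 0 and 3 were tested on 8 sums with a term for each library. Scripts were tested on simulated data. Alternatives were RLE size factors, library totals, no count filter, DESeq2 1.42.0, cells of another lineage left out, other models or reference clusters, and each library left out with only the tested factor in the model. Named genes were the 5 markers, list members, the 10 highest and lowest ratios to clusters 0 and 3 (5 for cluster 12) at 100 CPM or more, and the 10 largest called rises and falls at 20 CPM or more. The members and lists were chosen with earlier results of these data known. The ribosomal list, the split by Camp and Ngp and the day difference between clusters were chosen after seeing the data. Percentages of cells have 95% exact binomial intervals (SciPy 1.17.1), and cells were thinned to 1000 UMIs where depth mattered. The bulk RNA-seq files were not used here. A gene that the naming rule selected is not reported here.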

Additional observations from a re-analysis of the deposited data

Results flagged for a closer look

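The age effect, middle-aged over young, differed between cluster 6 and clusters 0 and 3 for 59 genes by edgeR's quasi-likelihood test of that difference. Among the largest differences on the log2 scale were those of Ngp (3.77), Camp (2.67), Adpgk (2.52), Zfand4 (2.44), 1700047M11Rik (2.32), S1pr4 (2.31), Prok2 (2.26), 4933408B17Rik (2.21) and Itgb2l (2.19), all with the higher age difference in cluster 6. Zmpste24 (-1.36) and Cited2 (-1.35) were the 2 genes with the lower one. A higher age difference need not be a rise with age in cluster 6, where 1700047M11Rik had a log2 difference of -1.09. The log2 ratio of cluster 6 to clusters 0 and 3 was lowest in young day 10 for Adpgk (2.44) and Itgb2l (2.72). In the other libraries it ran from 5.97 to 7.45 for Adpgk and from 6.09 to 6.93 for Itgb2l. The day effect, day 10 over day 6, differed between the same clusters for 259 genes. All of these rest on 1 library per age and day, and what produced them was not tested. Ngp and Camp were also among the transcripts on which the cells were clustered, so their differences are a description.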

How the results depend on the processing

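For age in cluster 6, where 1 gene was called, 0 were called with RLE size factors, library totals, DESeq2, cells of another lineage left out, age alone in the model, or only cells with 1% or more of Camp and Ngp. It was 5 with no count filter, 4 in cells under 1%, and 0 to 2 when single libraries were left out. Fits without a library held the tested factor alone, so library and model changed together. In them Prok2 ran from -0.31 (without middle-aged day 6) to 4.93 (without young day 6), and Stfa1, which was not called, to 0.92 in cells under 1%. For day (386 genes), DESeq2 called 159, cells of another lineage left out gave 171, cells with 1% or more 27, cells under 1% 238, and single libraries left out 47 to 565. For the difference of age effects (59 genes), the counts were 3 with DESeq2, 22 with cells of another lineage left out, 11 with no cluster by day term, 4 against cluster 0 alone, 78 against cluster 3 alone (14 higher and 64 lower, against 57 and 2), 35 and 31 in cells with 1% or more and under 1%, and 1 to 31 with single libraries left out. For the difference of day effects (259 genes), they were 442 with library totals, 15 with DESeq2, 120 with cells of another lineage left out, 35 in cells under 1%, and 40 to 389 with single libraries left out. Library totals moved the median of all genes for that difference from 0.09 to -0.46. The granule median against cluster 0 was 4.00 with granule and calprotectin genes out of the totals. Against cluster 12 it was 0.23 with TMM scaling and -0.16 to 0.12 with single libraries left out, above 0 (0.05 and 0.12) without either middle-aged library. The causes were not tested. Beyond the day and library terms already in the fits, no paired analysis was possible, because each age and day had 1 pooled library.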

Other observations

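Of 12 glycolysis and hypoxia genes, 1 was at least 2-fold higher and 3 were at least 2-fold lower than in cluster 0 in all 4 libraries, beside 7.83% and 19.5% of all genes, with a median log2 ratio of -0.57, the same as that of all genes. Against cluster 12 the median was 0.15. Of 6 heat shock genes that reached 50 CPM, none was at least 2-fold higher or lower than in clusters 0, 3 or 12 in all 4 libraries, with medians of -0.59, -0.10 and -0.52. Of 77 ribosomal protein genes, 35 were at least 2-fold lower than in cluster 12 in all 4 libraries (9.55% of all genes), with a median of -1.42.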
